A study of Mus musculus with 35 samples.

Results

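The transforming growth factor beta (TGF-beta), platelet-derived growth factor (PDGF) and insulin-like growth factor (IGF) genes described here are 10 genes chosen by symbol for their known part in tissue fibrosis. They are the ligand gene Tgfb1, the receptor genes Tgfbr1, Tgfbr2 and Tgfbr3, the signal transducer and inhibitor genes Smad3 and Smad7, the PDGF ligand genes Pdgfa, Pdgfb and Pdgfc, and Igf1. The choice was made with earlier results of these data known. All 10 were found among the 18193 genes measured on 35 arrays, and 25 of the 45101 probe sets belonged to them. Where a gene had several probe sets, the one that was brightest on average stands for it.

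The cells came from male C57BL/6J mice aged 8 weeks and were sorted by flow cytometry, with no treatment given in the labels. From bone marrow there were 2 arrays of inflammatory monocytes, 2 of SatM (segregated-nucleus-containing atypical monocytes, a Ceacam1+ Msr1+ cell that the study ties to lung fibrosis), 4 of cMoP (the common monocyte progenitor), 4 of SMP (labelled as the progenitor of SatM), and 1 each of the granulocyte-monocyte progenitor GMP and the macrophage and dendritic cell progenitor MDP. Of the cMoP and SMP arrays, 2 each were titled WT and are called the WT set; the other 2 are the numbered set. From the spleen there were also 2 arrays each of the 3 granulocytes: basophils, eosinophils and neutrophils. A tissue panel of 15 arrays covered SatM (spleen, bone marrow, blood, lung), cells labelled Msr1- Ceacam1- monocytes from spleen, bone marrow and blood, other Ly6C- monocytes from spleen and blood, Msr1-dull Ceacam1-dull monocytes from bone marrow and lung, M2-like tissue macrophages from spleen and bone marrow, and 2 arrays of lung macrophages, which are differently titled sorts (MP_BAL and F480 posi_BAL) taken here as 1 group. Each panel cell type had 1 array per tissue, except the lung macrophages, and the lung arrays are titled BAL. Nothing in the labels says that arrays of a group came from separate animals. Outside the panel p-values therefore measure only the spread between these arrays, which may be technical. In the panel the spread is mostly how far cell type differences varied between tissues, not a spread between replicate arrays.

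TGF-beta 1 is secreted in a latent form and, once freed, binds the type II receptor Tgfbr2, which recruits and activates the type I receptor Tgfbr1. The activated pair phosphorylates SMAD3, which enters the nucleus, while SMAD7 is an inhibitory SMAD that limits the signal. The co-receptor betaglycan, encoded by Tgfbr3, binds the ligand without a kinase of its own. PDGF ligands and IGF-1 are growth factors that macrophages are known to release and that act on fibroblasts.

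Values are log2 expression values, so that a difference of 1 is a 2-fold difference. The lowest value on every array was 2.30, and a probe set within 0.1 of it is called at the floor; on each array 50.2% to 52.6% of the probe sets were there. Values of different probe sets are not comparable as levels, so only the same gene is compared across cells. In these bulk samples fewer cells of an expressing type and less RNA per cell cannot be told apart. Differences were fitted with limma, separately for the 20 arrays outside the panel (12077 genes tested) and the 15 panel arrays (11734 genes tested). Calls required an adjusted p under 0.05, by Benjamini-Hochberg over all genes of the model, and a fitted difference of 1 or more in either direction. Of the 10 genes, 9 passed the filter on dim genes outside the panel, where Igf1 did not, and 10 passed it in the panel.

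Several groups carried markers of other cells. SMP arrays had a mean level of 13.50 over the 7 basophil and mast cell markers (array means 13.16 to 13.69), beside 13.77 in basophils and 3.56 in cMoP, and a mean of 4.79 over the 7 progenitor markers, beside 8.54 in cMoP. The Msr1- Ceacam1- cells, although labelled monocytes, had a mean of 11.30 over the 7 NK cell markers (array means 10.48 to 11.98), with none of the markers at the floor, beside 3.27 in panel SatM. They are called Msr1- Ceacam1- cells here. SatM of the marrow had a mean of 6.54 over 6 eosinophil markers, beside 2.44 in inflammatory monocytes, and the bone marrow array of panel SatM had 6.50 on that list and 8.36 on the progenitor list. The lung SatM array had a nonclassical monocyte mean of 6.48, against 10.31 to 11.28 in the other panel SatM arrays. The bone marrow array of M2-like macrophages had means of 7.16 on the erythroid, 7.50 on the B cell and 7.88 on the eosinophil list. The lung macrophage arrays had macrophage means of 8.90 and 8.54, but classical monocyte means of 7.64 and 11.15 and lung epithelium means of 5.28 and 2.76, so their mean joins unlike arrays. Within groups, arrays correlated over genes at r from 0.868 (Msr1-dull Ceacam1-dull cells) to 0.997 (inflammatory monocytes).

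**Figure D1:**
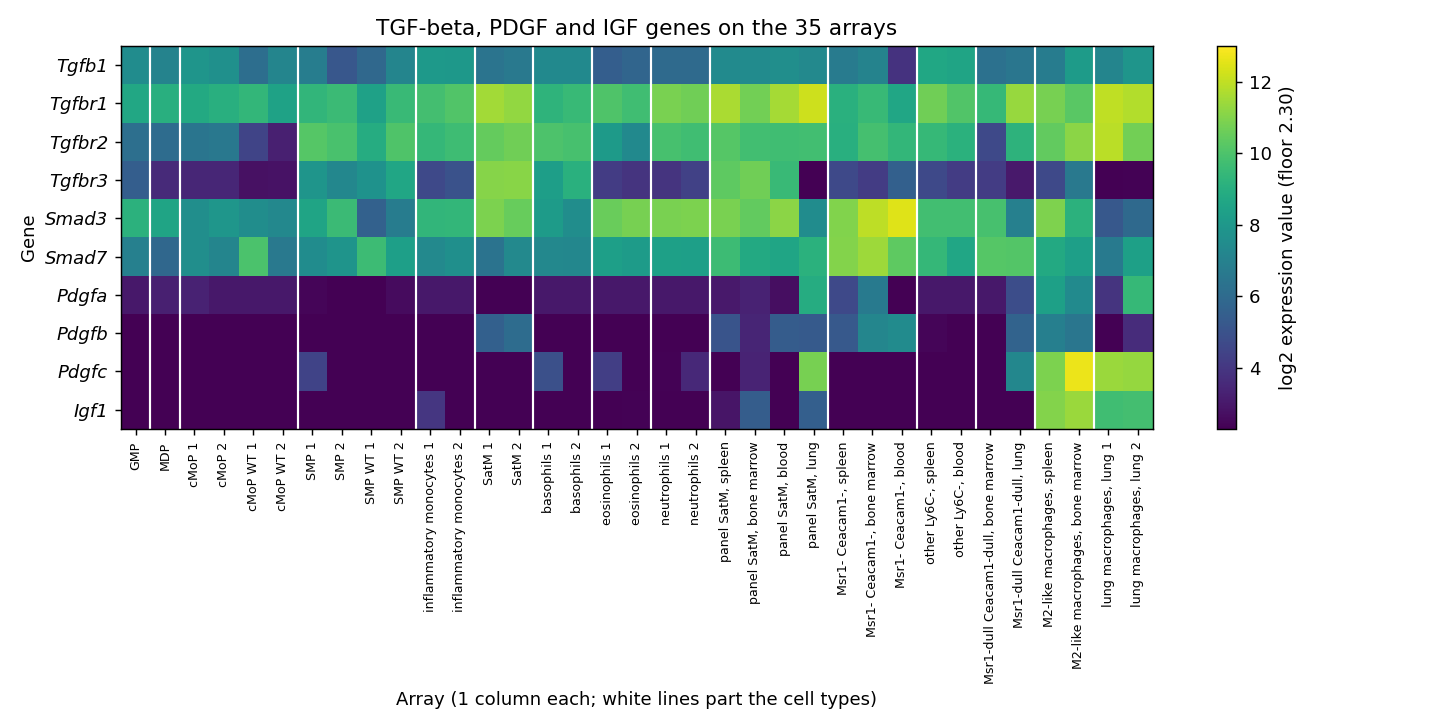
Log2 expression values of the 10 genes (rows) on each of the 35 arrays (columns), with dark colour at the floor of 2.30; colours compare arrays within a row, not genes with each other. Pdgfb, Pdgfc and Igf1 were at the floor on 21, 24 and 27 of the 35 arrays, while Tgfb1, Tgfbr1, Tgfbr2, Smad3 and Smad7 were above it on all 35.

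Tgfb1, the ligand gene, was above the floor in every cell type, with array values from 3.86 to 8.66 and a median of 7.16. Its group means were highest in other Ly6C- monocytes, 8.60 ± 0.08 (SD, n = 2), and in inflammatory monocytes, 8.02 ± 0.04 (SD, n = 2). They were lowest in eosinophils, 5.63 ± 0.21 (SD, n = 2), Msr1- Ceacam1- cells, 5.91 ± 1.78 (SD, n = 3), and neutrophils, whose 2 arrays both read 5.98. The wide spread of the Msr1- Ceacam1- cells came from the blood array at 3.86, with 6.77 in spleen and 7.10 in bone marrow. SatM from the 4 tissues of the panel lay close together, at 7.44 in spleen, 7.47 in bone marrow, 7.58 in blood and 7.34 in lung.

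In the marrow Tgfb1 read 6.40 and 6.63 in SatM and 8.04 and 7.99 in inflammatory monocytes. The SatM values were lower without overlap, but the difference of -1.51 (SE 0.61) did not pass the limma test (adjusted p = 0.155). Basophils read 7.37 and 7.36 and were 1.74 above eosinophils (SE 0.61, limma adjusted p = 0.0581) and 1.39 above neutrophils (SE 0.61, limma adjusted p = 0.089), both short of the threshold. No comparison called Tgfb1. A second probe set of the gene was dim, from 2.30 to 4.88, and on it eosinophils were above neutrophils by 1.16 (SE 0.30, limma adjusted p = 0.00783 over all probe sets).

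Among the receptor genes, Tgfbr3, the betaglycan gene, had the widest gap between SatM and inflammatory monocytes. It read 11.05 and 11.10 in SatM and 4.68 and 4.99 in inflammatory monocytes. SMP read 7.87 and 7.24 in the numbered set and 7.77 and 8.64 in the WT set, while cMoP read 3.45, 3.44, 2.78 and 2.83. The GMP array was at 5.49 and the MDP array at 3.57. The 4 groups SatM, SMP, inflammatory monocytes and cMoP therefore fell in this order with no overlap between them.

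All 4 comparisons fitted among these groups called the gene, and SMP were not compared with inflammatory monocytes. Tgfbr3 was higher in SatM than in inflammatory monocytes by 6.24 (SE 0.46, limma adjusted p = 1.78e-06). It was higher in SatM than in SMP by 3.19 (SE 0.43, limma adjusted p = 8.77e-05) and higher in SMP than in cMoP by 4.76 (SE 0.32, limma adjusted p = 1.52e-07). Inflammatory monocytes were above cMoP by 1.71 (SE 0.43, limma adjusted p = 0.0149), a call that was lost without either inflammatory monocyte array (adjusted p = 0.065 and 0.132). The second Tgfbr3 probe set was at the floor on 31 of 35 arrays, and the 4 arrays above it were all SatM: 6.26 and 4.43 in the marrow arrays and 4.0 and 2.87 in the panel arrays of spleen and bone marrow. On it the marrow SatM averaged 5.34 and inflammatory monocytes 2.30. Outside the panel this probe set passed the filter on dim values only through the SatM arrays. Its call by limma therefore had to follow, and no p is given for it.

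Outside the monocyte lineage, basophils were the cells with high Tgfbr3, at 8.31 and 9.10, against 4.22 and 3.90 in eosinophils and 3.90 and 4.35 in neutrophils. The basophil difference was 4.64 from eosinophils (SE 0.46, limma adjusted p = 1.66e-05) and 4.57 from neutrophils (SE 0.46, limma adjusted p = 5.75e-06). Basophil and SMP values overlapped, as did the basophil marker levels of these groups given above. What part the basophil markers have in the SMP values was not tested.

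In the tissue panel Tgfbr3 in SatM differed between the arrays: 10.34 in spleen, 10.70 in bone marrow, 9.57 in blood and 2.30, the floor, in lung. With 1 SatM array per tissue, tissue, array and the make-up of the sorted cells cannot be told apart. The 3 arrays outside the lung were all above every other panel array, of which the highest was the bone marrow M2-like array at 6.64. Both lung macrophage arrays were at the floor too (2.30 and 2.37), and the lung Msr1-dull Ceacam1-dull array read 3.03. By the panel model SatM were above Msr1- Ceacam1- cells by a fitted 4.72 (SE 1.19, limma adjusted p = 0.0422), with a plain difference of 3.40. There was no lung array of Msr1- Ceacam1- cells, and their values of 4.22 to 5.59 were all above the lung SatM array. With the lung arrays in, that call was lost without any of the 6 other arrays of the comparison (adjusted p from 0.0923 to 0.153). Leaving out the lung arrays, a setting added after seeing the data, removed the SatM array at the floor. SatM were then above Msr1-dull Ceacam1-dull cells by a fitted 6.29, with only the bone marrow array of those cells left. M2-like macrophages minus SatM was then -4.59 (limma adjusted p = 0.0172). Neither difference was called with the lung arrays in.

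**Figure D2:**
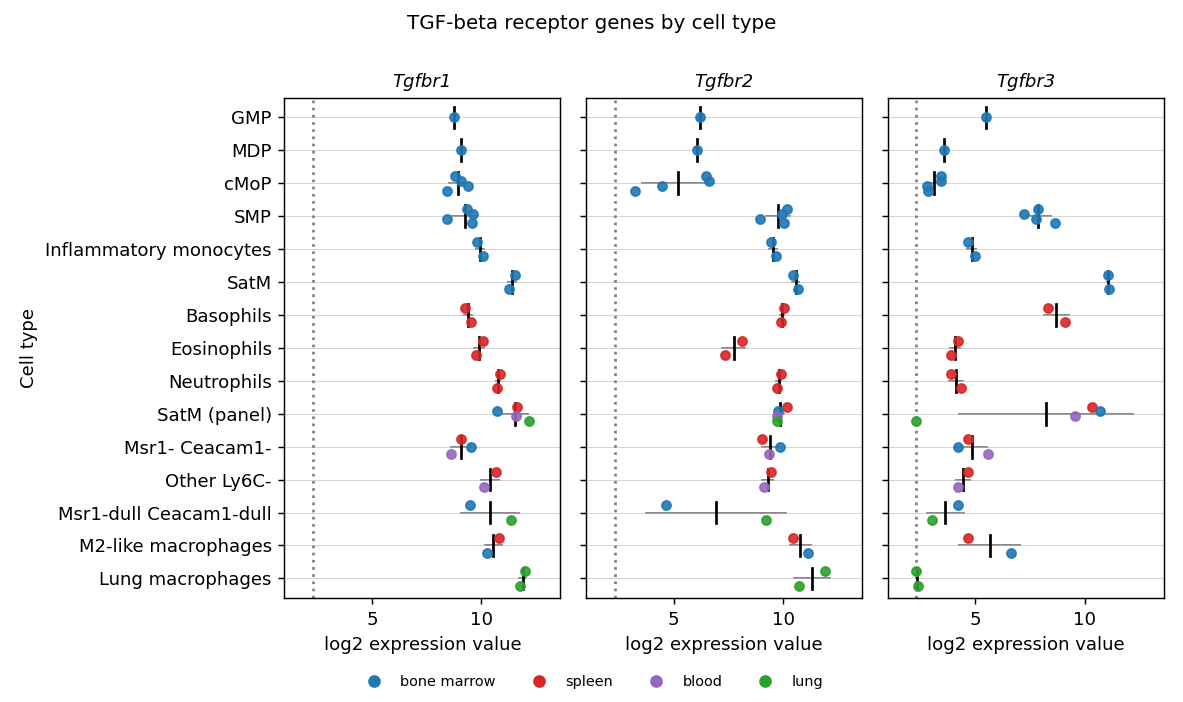
Log2 expression values of Tgfbr1, Tgfbr2 and Tgfbr3 by cell type: each point is 1 array, coloured by tissue, black ticks are group means, grey bars are 1 SD and the dotted line is the floor of 2.30. Tgfbr3 is at 11.05 and 11.10 in marrow SatM and at the floor in the lung SatM array, and Tgfbr2 is low in the cMoP arrays.

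Tgfbr2, the ligand-binding type II receptor gene, was low in cMoP, GMP and MDP. It read 6.47 and 6.60 in cMoP, 4.49 and 3.22 in the WT set of cMoP, 6.19 in GMP and 6.07 in MDP. In SMP it read 10.18, 9.93, 8.93 and 10.04, in inflammatory monocytes 9.43 and 9.68, and in SatM 10.47 and 10.70. All values of these 3 groups were above all progenitor values of cMoP, GMP and MDP.

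Tgfbr2 was higher in SMP than in cMoP by 4.58 (SE 0.42, limma adjusted p = 2.16e-06). It was higher in inflammatory monocytes than in cMoP by a fitted 3.55 (SE 0.55, limma adjusted p = 0.000652), with group means of 9.56 and 5.19. SatM, with a mean of 10.59, differed from inflammatory monocytes by 1.03 (SE 0.59, 95% confidence interval -0.25 to 2.32, limma adjusted p = 0.341). The fitted difference of SatM from SMP, with the WT term in the model, was 0.01 (95% confidence interval -1.20 to 1.21). The plain difference of means was 0.82, and both SatM arrays were above all SMP arrays. The WT term is shared by cMoP and SMP, and the fitted 3.55 and 0.01 rest on it. SMP minus cMoP was 3.52 in the numbered and 5.63 in the WT set (interaction 2.11, SE 0.61, limma adjusted p = 0.12). In the spleen eosinophils read 8.12 and 7.36, below neutrophils at 9.89 and 9.73 by 2.08 (SE 0.59, limma adjusted p = 0.012) and below basophils at 10.03 and 9.90 by 2.23 (SE 0.59, limma adjusted p = 0.016). Leaving out eosinophil array 2 ended both calls (adjusted p = 0.101 and 0.134), leaving out neutrophil array 1 ended the former (0.065), and leaving out basophil array 1 or 2 ended the latter (0.08 and 0.0677).

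In the panel Tgfbr2 was highest in lung macrophages, at 11.91 and 10.73, and in M2-like macrophages, at 10.44 in spleen and 11.13 in bone marrow. SatM ranged from 9.73 in blood to 10.17 in spleen. The bone marrow Msr1-dull Ceacam1-dull array stood at 4.66, while the lung array of the same label was at 9.21. On the bone marrow array the eosinophil, neutrophil and progenitor marker means were 8.69, 10.76 and 8.83, and on the lung array 4.04, 3.62 and 5.14. Their part in the Tgfbr2 values was not tested. The other 2 probe sets of Tgfbr2 were at the floor on 34 and 35 of the arrays.

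Tgfbr1, the type I receptor kinase gene, was expressed in all cells, from 8.41 to 12.19. SatM read 11.52 and 11.26, inflammatory monocytes 9.79 and 10.08, SMP from 8.41 to 9.60 and cMoP from 8.45 to 9.37. SatM were higher than SMP by a fitted 2.03 (SE 0.34, limma adjusted p = 0.0005). They were higher than inflammatory monocytes by 1.46 (SE 0.36, limma adjusted p = 0.0219), but that call was lost without any 1 of the 4 arrays (adjusted p from 0.0664 to 0.162). The second Tgfbr1 probe set read 6.23 and 7.42 in SatM and 4.19 and 4.39 in inflammatory monocytes.

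Across tissues SatM kept high Tgfbr1 values, at 11.64 in spleen, 10.73 in bone marrow, 11.56 in blood and 12.19 in lung, where Tgfbr3 was at the floor. Msr1- Ceacam1- cells read 9.08, 9.53 and 8.63, without overlap, and SatM were higher by a fitted 2.15 (SE 0.32, limma adjusted p = 0.00607). With the 7 compared arrays alone the adjusted p was 0.111. The lung macrophages, at 11.99 and 11.77, lay within the range of panel SatM (fitted difference -0.55, 95% confidence interval -1.58 to 0.48). Among granulocytes neutrophils read 10.83 and 10.70, and basophils were lower by 1.38 (SE 0.36, limma adjusted p = 0.00813; 0.053 without basophil array 1 and 0.0525 without neutrophil array 1).

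Smad3, the transducer of the receptor signal, was above the floor on every array on its main probe set, from 5.25 to 12.46. Msr1- Ceacam1- cells were highest, at 10.96, 11.95 and 12.46, and lung macrophages lowest, at 5.25 and 5.97. In SatM of the marrow it read 10.89 and 10.53, in inflammatory monocytes 9.36 and 9.40, and in cMoP from 7.30 to 7.92. SatM were above SMP by a fitted 2.28 (SE 0.60, limma adjusted p = 0.0111), with group means of 10.71 and 7.63. The call was lost without SatM array 1 (2.11, adjusted p = 0.0745) and with these groups alone (1.65, adjusted p = 0.134). The difference of SatM from inflammatory monocytes, 1.33 (SE 0.64), was not called (limma adjusted p = 0.237). The other 2 probe sets of Smad3 were at the floor on 32 and 35 of the 35 arrays. With probe sets averaged per gene the SatM minus SMP difference was 0.78, under the fold threshold (limma adjusted p = 0.0227).

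The SMP arrays disagreed on Smad3. The numbered set read 8.53 and 9.59 and the WT set 5.62 and 6.79, while cMoP read 7.59 and 7.92 in the numbered and 7.56 and 7.30 in the WT set. SMP were thus above cMoP by 1.30 in the numbered set and below by 1.22 in the WT set. The test of that interaction gave -2.52 (SE 0.57), which did not pass over all genes (limma adjusted p = 0.0509, unadjusted p = 0.000941). What WT stands for beside the numbered set is not given in the labels.

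Lung cells had low Smad3 throughout: the lung SatM array read 7.49 against 10.42 to 11.12 in SatM of the other tissues, and the lung Msr1-dull Ceacam1-dull array 6.94 against 9.87 in bone marrow. Every lung array of the panel was below every other panel array. Since each lung cell type other than macrophages had 1 array, tissue and array cannot be told apart. In spleen granulocytes, eosinophils read 10.56 and 10.82 and neutrophils 10.85 and 10.89, whereas basophils read 8.16 and 7.54. Basophils were lower than neutrophils by 3.02 (SE 0.64, limma adjusted p = 0.00204) and lower than eosinophils by 2.84 (SE 0.64, limma adjusted p = 0.00639; 0.0574 without basophil array 2 and 0.0504 without eosinophil array 2).

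Smad7, the inhibitory SMAD gene, was highest in Msr1- Ceacam1- cells, at 11.01, 11.43 and 10.34. Panel SatM read 9.63, 8.81, 8.57 and 9.13 in spleen, bone marrow, blood and lung, and were lower by a fitted 1.92 (SE 0.40, limma adjusted p = 0.0223). That call was lost without any 1 of 5 of the 7 arrays (adjusted p from 0.051 to 0.109). In the marrow SatM read 6.38 and 7.33 and inflammatory monocytes 7.33 and 7.61, and no marrow comparison called the gene. Array 1 of the WT set was the highest in both progenitors, at 9.97 in cMoP and 9.64 in SMP.

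The 2 Smad7 probe sets did not read alike in all cells. In eosinophils the probe set used above read 8.33 and 8.19 and the other 3.94 and 2.59, and in the bone marrow Msr1-dull Ceacam1-dull array 10.16 and 2.79. On the second probe set eosinophils were lower than neutrophils by 4.70 (SE 0.67, limma adjusted p = 0.000123 over all probe sets) and basophils higher than eosinophils by 3.52 (SE 0.67, limma adjusted p = 0.00261). On the first the differences were -0.10 and -0.99, and neither was called. Smad7 in eosinophils is therefore uncertain.

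**Figure D3:**
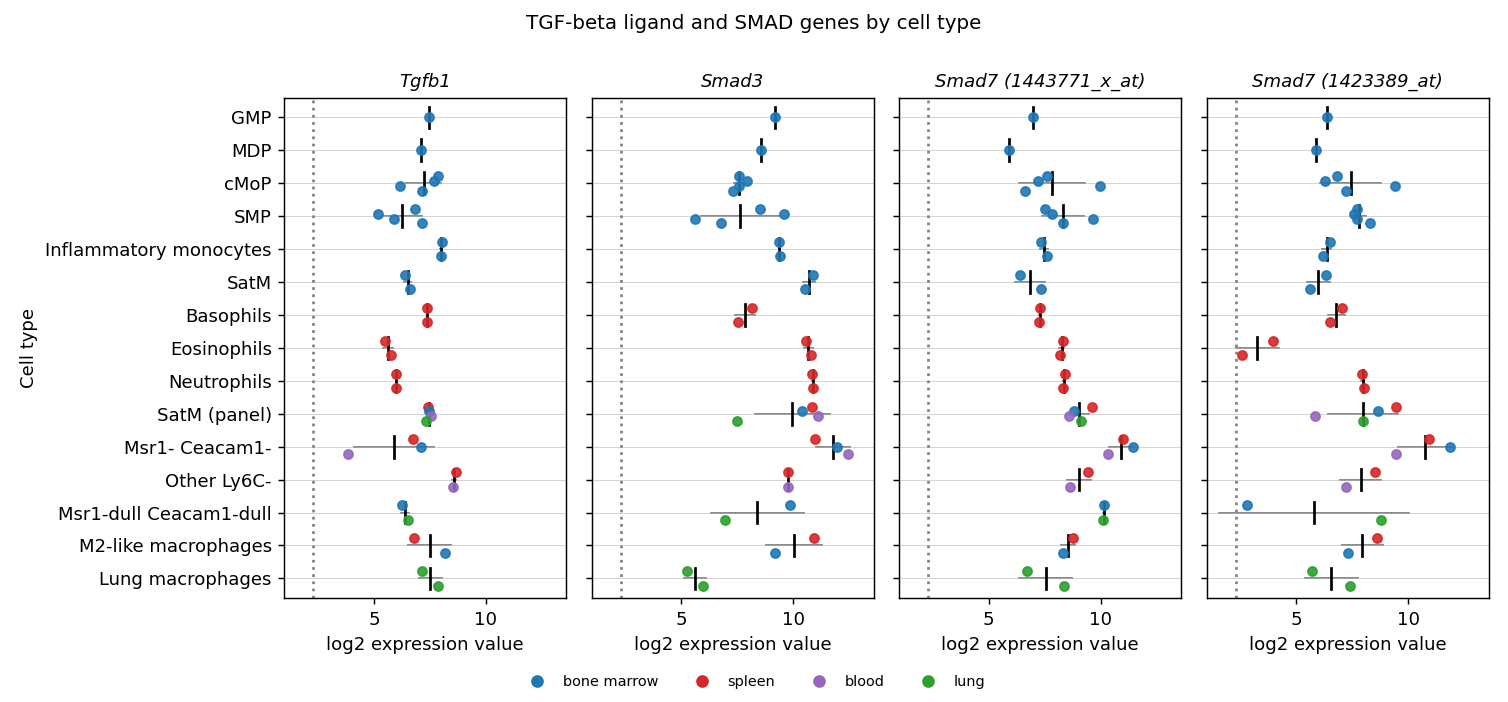
Log2 expression values of Tgfb1, Smad3 and both Smad7 probe sets by cell type: each point is 1 array, coloured by tissue, black ticks are group means, grey bars are 1 SD and the dotted line is the floor of 2.30. Smad3 is lowest in the lung macrophages at 5.25 and 5.97, and the Smad7 probe sets part in eosinophils.

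Among the growth factor genes, Igf1 and Pdgfc were highest in tissue macrophages, and both were at the floor on most other arrays. Igf1, which encodes the secreted ligand IGF-1, read 11.02 and 11.40 in M2-like macrophages of spleen and bone marrow and 9.71 and 9.80 in lung macrophages. Of the other 31 arrays the highest were SatM of lung, 5.55, and SatM of bone marrow in the panel, 5.46. Inflammatory monocyte array 1 read 3.98 and spleen SatM 2.89, and the remaining 27 arrays were at the floor. Neither marrow SatM array was above it.

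M2-like macrophages were higher in Igf1 than panel SatM by a fitted 7.25 (SE 0.67, limma adjusted p = 0.000651). The gene's other 3 probe sets gave 7.32 to 8.01, each called. For lung macrophages the fitted difference from panel SatM was 4.54 (SE 0.80), not called with the main probe set (limma adjusted p = 0.124), although the values did not overlap. The other 3 probe sets gave 4.50, 4.82 and 5.71 and were each called (limma adjusted p = 0.014, 0.00166 and 0.000697 over all probe sets). Without the lung SatM array the main probe set gave 5.42 (limma adjusted p = 0.0434). In that fit the groups shared no tissue and were linked only through the Msr1-dull Ceacam1-dull arrays of bone marrow and lung.

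Pdgfc, a PDGF ligand gene, read 10.87 and 12.69 in M2-like macrophages and 11.40 and 11.30 in lung macrophages. The lung SatM array was nearly as high, at 10.79, while SatM of spleen and blood were at the floor and SatM of bone marrow read 3.36. The lung Msr1-dull Ceacam1-dull array read 7.25. Single arrays of SMP (4.46), basophils (4.92), eosinophils (4.29) and neutrophils (3.52) were above the floor, each with the other arrays of its group at the floor. M2-like macrophages were higher than panel SatM by a fitted 8.72 (SE 0.61, limma adjusted p = 0.00015), and by 7.83 with the second probe set (SE 0.77, limma adjusted p = 0.000852). With the arrays of these groups alone in the fit, neither Pdgfc nor Igf1 was called (adjusted p = 0.0966 and 0.102), and without a tissue term Pdgfc was not (7.09, adjusted p = 0.0915). Lung macrophages differed from panel SatM by a fitted 1.29 with tissue in the model (95% confidence interval -0.42 to 2.99, limma adjusted p = 0.763).

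Pdgfa, the PDGF A chain gene, was also highest in macrophages and lung SatM. It read 8.40 and 7.40 in M2-like macrophages, 8.94 in lung SatM, and 3.91 and 9.45 in the lung macrophage arrays, which thus disagreed. Msr1- Ceacam1- cells read 4.65, 6.72 and 2.30. On 15 of the 35 arrays the value was the same, 2.99. The M2-like difference from panel SatM was a fitted 4.01 (SE 1.64, limma adjusted p = 0.194). It was 4.39 without the lung arrays of the panel, a setting added after seeing the data. On the second Pdgfa probe set the M2-like difference was 1.30 (SE 0.64, limma adjusted p = 0.297 over all probe sets). In SatM of the marrow Pdgfa was at the floor on both arrays, against 2.99 in both inflammatory monocyte arrays, a difference under the fold threshold (-0.69, SE 0.14, limma adjusted p = 0.00779). The second probe set gave -0.20 (SE 0.26, limma adjusted p = 0.816 over all probe sets).

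Pdgfb, the PDGF B chain gene, was above the floor in SatM alone among the cells outside the panel, on its main probe set. SatM read 5.59 and 6.10, and all inflammatory monocyte, cMoP, SMP, GMP, MDP and granulocyte arrays were at the floor. SatM were at least 11.7-fold higher than inflammatory monocytes and than SMP, comparing means with the floor. The gene passed the filter on dim genes only through the 2 SatM arrays, so its call by limma had to follow and no p is given for it. The second Pdgfb probe set was dim, from 2.47 to 3.38 on the 35 arrays, and averaged 2.55 in SatM and 2.53 in inflammatory monocytes (difference 0.02, SE 0.08). Pdgfb is also known from platelets, and the platelet marker mean was 2.58 in SatM and 2.60 in inflammatory monocytes, with 6 and 5 of the 8 markers at the floor. What part platelets have in the Pdgfb values was not tested.

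In the panel Pdgfb was at 5.06, 3.39, 5.43 and 5.34 in SatM of spleen, bone marrow, blood and lung. Other Ly6C- monocytes were at 2.46 and 2.30, without overlap, but that difference was not called (2.31, SE 0.88, limma adjusted p = 0.577). Msr1- Ceacam1- cells read 5.29, 7.23 and 7.47, and M2-like macrophages 6.92 and 6.49. Lung macrophages were at 2.30 and 3.65, below the lung SatM array.

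**Figure D4:**
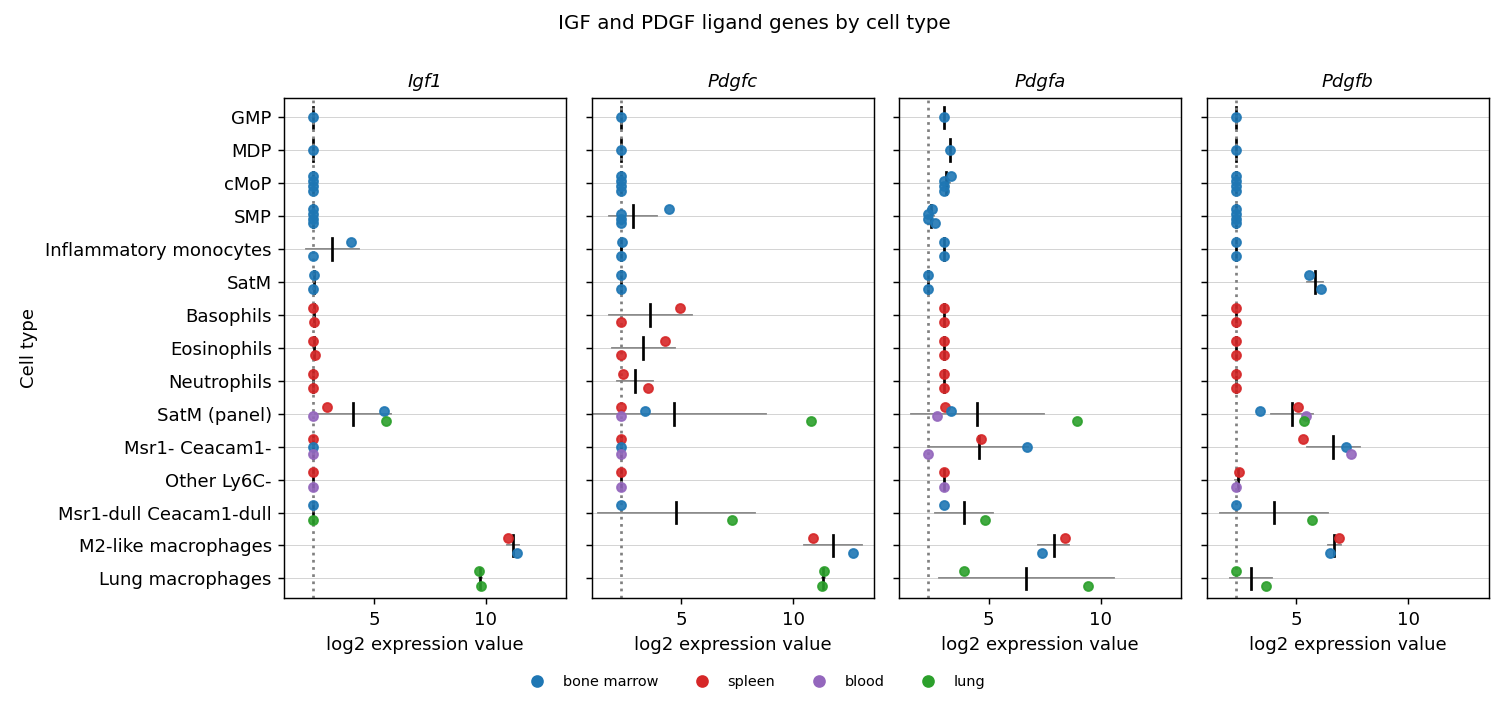
Log2 expression values of Igf1, Pdgfc, Pdgfa and Pdgfb by cell type: each point is 1 array, coloured by tissue, black ticks are group means, grey bars are 1 SD and the dotted line is the floor of 2.30. The 4 macrophage arrays lie between 9.71 and 11.40 for Igf1 and between 10.87 and 12.69 for Pdgfc, and the lung SatM array joins them for Pdgfc.

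Over the 17 groups of the labels the group means of Pdgfc and Igf1 correlated at Pearson r = 0.97, Pdgfa and Igf1 at 0.93 and Pdgfa and Pdgfc at 0.92. They rest on few groups with high levels, and are a description. Of the TGF-beta genes, the closest pair was Tgfbr1 and Tgfbr2, at 0.63. The macrophage arrays with high Igf1 also had the highest means over 14 tissue and alveolar macrophage markers, 11.05 in M2-like and 8.72 in lung macrophages, against 8.09 in lung SatM and 5.71 in blood SatM.

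The promoters of Igf1, Pdgfc and Pdgfa, whose group means were the most alike among the members, are shown as the 250 bases before the annotated start, from RefSeq (GRCm38.p6). Promoter windows of 7 of the 10 genes were examined. The windows shown are chr10:87860861-87861110 on the plus strand for Igf1, chr3:81036166-81036415 on the plus strand for Pdgfc, and chr5:138994945-138995194 on the minus strand for the upstream of 2 Pdgfa starts. Capitals mark matches, on either strand, to AP-1 (TGANTCA), PU.1 (GAGGAAG), a SMAD palindrome (GTCTAGAC), the SMAD-binding CAGA box (CAGACA) or a TATA box (TATAAA).
Igf1: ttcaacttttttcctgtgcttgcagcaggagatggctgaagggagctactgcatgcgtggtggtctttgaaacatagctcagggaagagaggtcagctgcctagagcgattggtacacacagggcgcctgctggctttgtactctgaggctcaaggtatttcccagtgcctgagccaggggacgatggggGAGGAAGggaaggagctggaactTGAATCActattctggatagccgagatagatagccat
Pdgfc: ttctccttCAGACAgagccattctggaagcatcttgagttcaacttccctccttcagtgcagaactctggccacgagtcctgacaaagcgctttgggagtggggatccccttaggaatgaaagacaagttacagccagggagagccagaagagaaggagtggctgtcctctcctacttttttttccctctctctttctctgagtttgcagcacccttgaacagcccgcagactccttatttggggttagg
Pdgfa: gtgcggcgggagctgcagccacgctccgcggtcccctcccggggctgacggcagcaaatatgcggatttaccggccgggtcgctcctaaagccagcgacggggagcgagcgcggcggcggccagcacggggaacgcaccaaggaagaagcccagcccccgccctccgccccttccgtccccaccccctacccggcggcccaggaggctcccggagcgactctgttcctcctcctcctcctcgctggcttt

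The Igf1 window held 1 PU.1 and 1 AP-1 match, the Pdgfc window held 1 CAGA box, and the Pdgfa windows held none of the 5 motifs. Of 32851 mouse promoter windows of the same length, 10.6% held the PU.1, 6.75% the AP-1, 17.1% the CAGA box, 12.4% the TATA and 0.167% the SMAD palindrome letters. Of the other windows, those of Tgfb1 and Smad3 held no match, the Tgfbr2 window held 1 PU.1 match, and the downstream of 2 Tgfbr1 windows held 1 PU.1 match and 1 CAGA box. The GC content was 52.8% for Igf1, 50.8% for Pdgfc and 72.4% for the Pdgfa window shown. A match is a description of the letters only.

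By comparison, the counts of called members were as follows. The members were chosen with earlier results of these data known, so these counts and medians are a description and carry no test. SatM against inflammatory monocytes gave 3 of 9 tested members higher (Tgfbr1, Tgfbr3 and Pdgfb; 2 of 8 without Pdgfb, which was tested only because of its SatM values) and 0 lower, while 2.87% of all genes tested were called higher and 6.47% lower. The members' median difference was 1.03, against -0.02 over all genes. That median includes Pdgfb (3.55) and would be lower without it. SMP against cMoP gave 2 higher (Tgfbr2 and Tgfbr3) and 0 lower, beside 12.8% and 22.7% of all genes, with medians of 0.31 and -0.09. SatM against SMP gave 4 higher (Tgfbr1, Tgfbr3, Smad3 and Pdgfb, or 3 of 8 without Pdgfb) and 0 lower, beside 12.8% and 14.0%. The medians were 0.08, with Pdgfb included, and -0.03. Inflammatory monocytes against cMoP gave 2 higher (Tgfbr2 and Tgfbr3) and 0 lower, beside 6.62% and 8.25%, with medians of 0.64 and -0.01. These comparisons share arrays.

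**Figure D5:**
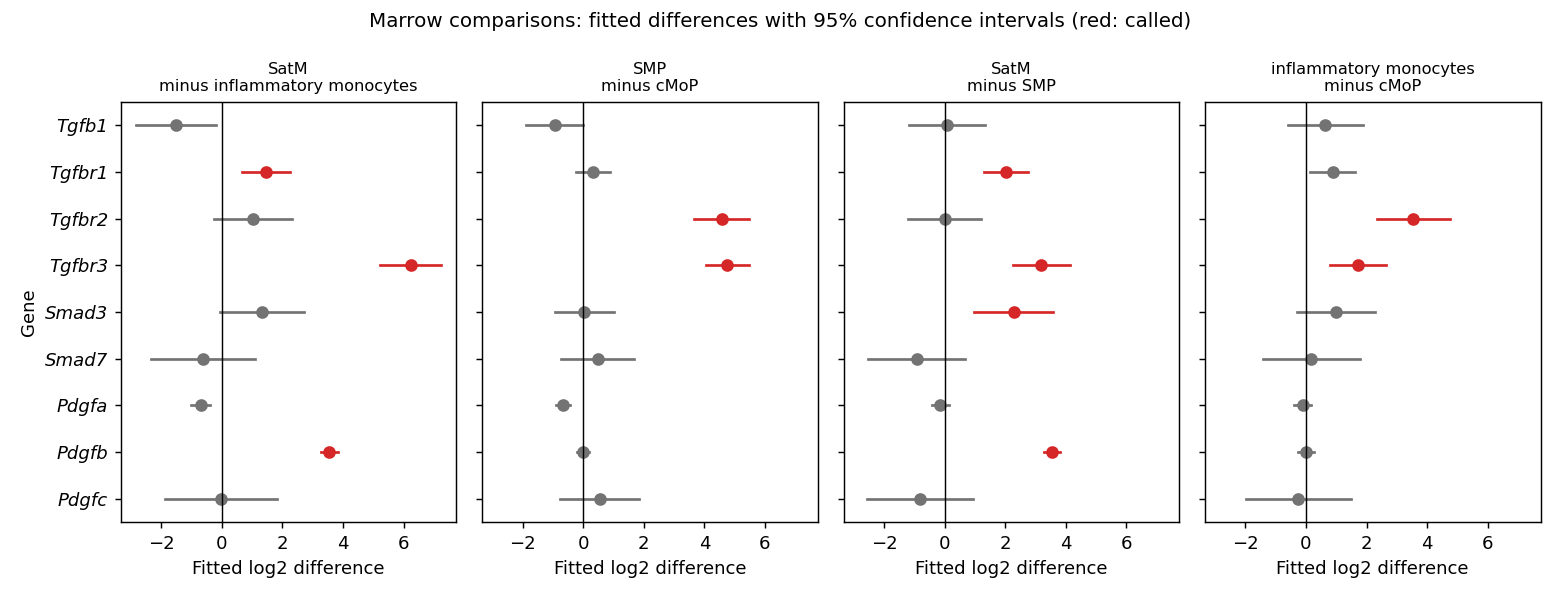
Fitted log2 differences (points) with 95% confidence intervals (lines) of the 9 tested genes in the 4 marrow comparisons; red marks the called genes. Tgfbr3 is red in all 4, with differences of 6.24, 4.76, 3.19 and 1.71, and Pdgfb, tested only because of its SatM values, in both that involve SatM.

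Among granulocytes the counts were at most 2 of 9 in a direction, in comparisons where many genes differed. Eosinophils against neutrophils gave 0 higher and 1 lower (Tgfbr2), beside 23.1% and 17.4% of all genes. Basophils against neutrophils gave 1 higher (Tgfbr3) and 2 lower (Tgfbr1 and Smad3), beside 21.9% and 15.6%. Basophils against eosinophils gave 2 higher (Tgfbr2 and Tgfbr3) and 1 lower (Smad3), beside 11.3% and 9.36%. The members' medians were -0.10, 0.00 and 0.00, against 0.02, 0.01 and 0.00 over all genes. Read against those shares, the granulocyte counts are no result about the members as a list.

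In the panel, SatM against Msr1- Ceacam1- cells gave 2 of 10 higher (Tgfbr1 and Tgfbr3) and 1 lower (Smad7), beside 4.94% and 5.28% of all genes. M2-like macrophages against SatM gave 2 higher (Pdgfc and Igf1) and 0 lower, beside 5.39% and 2.92%. SatM against other Ly6C- monocytes called 0 members by limma, beside 0.00852% of all genes higher and 0.0597% lower, with 4 members at an unadjusted limma p under 0.05. SatM against Msr1-dull Ceacam1-dull cells called 0, beside 0.153% higher and 0.102% lower, with 4 at an unadjusted limma p under 0.05. That count was higher without the lung arrays, a setting added after seeing the data. Lung macrophages against SatM called 0, beside 0.128% higher and 0.111% lower, with 4 at an unadjusted limma p under 0.05. Without the lung SatM array it called 3, but these groups then shared no tissue. They were linked only through the Msr1-dull Ceacam1-dull arrays of bone marrow and lung, so this is no direct comparison. Of the 3, Tgfbr2 was called lower (-3.36), although both lung macrophage arrays were above all panel SatM arrays. In the order given, the members' medians were 0.30, 0.55, 0.57, 1.77 and -0.95, and those of all genes -0.06, 0.03, -0.06, -0.01 and 0.02. The 5 comparisons share the panel SatM arrays.

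Of 66 further genes of these pathways, 48 were tested outside the panel. Between SatM and inflammatory monocytes 1 was higher and 7 were lower, beside 2.87% and 6.47% of all genes. The higher one was Igf2r, the receptor that clears IGF-2, with means of 7.24 and 2.86 (4.38, limma adjusted p = 0.00407). Lower were Thbs1, which encodes thrombospondin 1, an activator of latent TGF-beta (-5.54, limma adjusted p = 0.00487), and Nrros, whose product anchors latent TGF-beta on myeloid cells (-1.15, limma adjusted p = 0.0131). The type I receptor genes Acvrl1 (-2.09, limma adjusted p = 0.0105) and Acvr1 (-1.78, limma adjusted p = 0.015) were lower, as were the ubiquitin ligase gene Smurf1 (-1.58, limma adjusted p = 0.0303), the TGF-beta-induced gene Tgfbi (-2.17, limma adjusted p = 0.023) and the IGF-binding protein gene Igfbp4 (-2.13, limma adjusted p = 0.0334). The call of Igf2r was kept in all 16 alternatives and that of Thbs1 in all but 1, while those of Igfbp4, Smurf1 and Tgfbi were lost in 9, 8 and 7. With the panel SatM array of bone marrow added the Igfbp4 difference was 0.19. Of the 5 tested genes of the PDGF family and its receptors, 0 were called; Pdgfra was at the floor on all 35 arrays.

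Between SMP and cMoP 9 of these 48 were higher and 10 lower, beside 12.8% and 22.7% of all genes, so that the counts say nothing particular of the lists. The largest difference was that of Igfbp7, an IGF-binding protein gene at the floor in cMoP and at 9.36 in SMP (at least 134-fold, limma adjusted p = 1.43e-08), followed by Igf1r, the IGF-1 receptor gene (means 12.20 and 7.28, difference 4.92, limma adjusted p = 7.01e-08). Both were also high in basophils, at 10.46 and 11.65. Id1, a BMP and TGF-beta response gene, was higher by 3.43, Furin, the protease that cleaves the TGF-beta precursor, by 2.15, and the SMAD co-repressor gene Ski by 2.02. Lower in SMP were Tgfbi (-4.85), Acvr1 (-3.63), Tsc22d1 (-3.25), Bambi, which encodes a decoy receptor (-2.80), and Zfyve9, whose product presents SMADs to the receptor (-2.78).

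Between SatM and SMP 10 were higher and 8 lower, beside 12.8% and 14.0% of all genes. Zfyve9 was at 10.08 in SatM and 2.64 in SMP (fitted 7.05, limma adjusted p = 9.69e-08), and Tgif1, a SMAD co-repressor gene, and Tgfbi were higher by 4.22 and 3.65. Igfbp7 was at the floor in SatM (at least 134-fold lower), and Igfbp4, Igf1r and Id1 were lower by 5.77, 4.11 and 3.55. Between inflammatory monocytes and cMoP 9 were higher and 3 lower, beside 6.62% and 8.25% of all genes. Zfyve9 was higher by 4.05. Thbs1 was higher by a fitted 5.03, but cMoP averaged 2.41 in the numbered and 6.87 in the WT set, against 8.38 in inflammatory monocytes, a plain difference of 3.74. Igfbp4 and the co-repressor gene Tgif2 were lower by 5.73 and 2.13.

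Among granulocytes, 7 of the 48 were higher and 12 lower in eosinophils than in neutrophils, beside 23.1% and 17.4% of all genes. Pdgfrb, a PDGF receptor gene, was at 8.76 in eosinophils and at the floor in neutrophils and basophils (at least 88.4-fold, limma adjusted p = 8.73e-05 and 0.00025). The receptor gene Bmpr1a and the activin subunit gene Inhba were at 8.51 and 7.41 in neutrophils and at the floor in eosinophils and basophils; they entered the test only through the neutrophil arrays. Basophils against neutrophils gave 8 higher and 14 lower, beside 21.9% and 15.6% of all genes, and against eosinophils 8 higher and 6 lower, beside 11.3% and 9.36%. In both Igfbp7 had the largest positive difference (at least 286-fold), and Igf2r was lower, by 4.49 and 4.45.

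In the panel 46 of the 66 were tested. SatM against Msr1- Ceacam1- cells gave 5 higher, Tgfbi (6.51), Zfyve9 (6.49), Nrros (2.51), Bmpr2 (1.87) and Acvr1b (1.70), and 1 lower, Vegfa (-1.89), beside 4.94% and 5.28% of all genes. Of these the call of Zfyve9 was kept in all 18 alternatives, and the other 5 were lost in 5 to 10. In M2-like macrophages 2 were higher than in SatM, Acvrl1 (3.75) and Vegfb (1.61), and 3 lower, Zfyve9 (-3.98), Vegfa (-2.37) and Furin (-1.19), beside 5.39% and 2.92% of all genes; their calls were lost in 2 to 14 of 17 alternatives, that of Vegfb most often. Against other Ly6C- monocytes 1 was lower in SatM, Igfbp6, which was at the floor there (at least 2.60-fold). In the other panel comparisons, with Msr1-dull Ceacam1-dull cells and lung macrophages, 0 of 46 were called by limma. Igf1r, the receptor for the ligand that the macrophage arrays held, averaged 6.55 in M2-like and 2.97 in lung macrophages, against 7.54 in panel SatM and 12.20 in SMP.

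For each member the genes whose 17 group means followed it most closely were sought among 9315 genes. Igf1 was matched by Mertk, a receptor for apoptotic cells (r = 0.996), and Snx24 (0.993), and Pdgfc by Hebp1 (0.98) and Plxna1 (0.974). Pdgfa was closest to Dst (0.959) and Ephx1 (0.952), and Pdgfb to Pou6f1 (0.945) and Mov10 (0.878). Tgfbr1 was closest to the Fc receptor gene Fcgr4 (0.92) and Tgm2 (0.904), Tgfbr2 to Lgals8 (0.937) and Zswim8 (0.886), and Smad3 to Ptpn22 (0.93) and Zfp869 (0.843). Smad7 was closest to Nr4a3 (0.843) and Efnb1 (0.824) and Tgfb1 to Acvr1 (0.834) and Iqsec2 (0.83). Tgfbr3 had no gene above 0.757 (Tet2), followed by Dusp16 at 0.747. These are the best of many correlations over few groups and carry no test.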

How the data were processed

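Total RNA of sorted cells was hybridised to Affymetrix Mouse430_2 arrays, 1 sample per array. The deposited values are log2 values per probe set; base 2 was inferred from their range, and how the authors made them is not given in the sources used here. The 64 control probe sets, 9160 without a symbol and 932 with several were left out, which left 34945 probe sets of 18193 genes; 34741 matched the reference table (GRCm38.p6, names only). For arrays there is no depth, and their number limits the precision. Models were fitted with limma 3.58.1 (lmFit, eBayes with trend) in R 4.3.3: cell type and a WT term for the 20 arrays outside the panel, cell type and tissue for the 15 panel arrays, with 10 and 6 residual degrees of freedom. A fitted difference can therefore differ from the plain difference of means. A gene entered a model if it exceeded the array median on 2 or more of that model's arrays. A difference against a group at the floor is given as at least N-fold from the plain means. The members and the gene lists were chosen with earlier results of these data known. Named were all members, up to 3 called genes per pathway list and comparison (the text gives a choice of these), and the 2 genes most like each member. Listed genes absent from the table were not analysed here. Scripts were tested on simulated data. Tables and figures were made with Python 3.11.15, pandas 2.3.3 and matplotlib 3.10.9. Alternatives were quantile normalisation, other filters, probe set rules, array sets, eBayes settings, no fold threshold, no WT or tissue term, a replicate block and leaving out each array; leaving out the lung arrays was added after seeing the data.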

Additional observations from a re-analysis of the deposited data

Results flagged for a closer look

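In groups of 4 arrays, 25 pairs of a group and a gene were examined for an array far from the rest, and 6 were found. For replicate arrays with untied values chance gives about 1 in 20. Some pairs here had tied values and the panel SatM arrays are 4 tissues, so the 6 cannot be read against that rate. The lung array stood apart from the other panel SatM arrays for Tgfbr3 (2.30, the lowest), Pdgfa (8.94) and Pdgfc (10.79, both the highest). The spleen array was the highest of panel SatM for Tgfbr2, at 10.17 against 9.73 to 9.77. For Pdgfa the cMoP array 1 read 3.33 against 2.99 on the other 3, and for Pdgfc the SMP array 1 read 4.46 with the other 3 at the floor. The SMP minus cMoP difference of Smad3 was 1.30 in the numbered and -1.22 in the WT set, an interaction of -2.52 with a limma adjusted p of 0.0509.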

How the results depend on the processing

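Of the counts of called members recomputed under the alternatives, 166 stayed within 1.5 times the main count and 36 did not. With the compared groups alone the count was 6 instead of 3 for SatM minus inflammatory monocytes, 5 instead of 3 for basophils minus neutrophils, and 0 instead of 3 and 2 for panel SatM minus Msr1- Ceacam1- cells and M2-like macrophages minus panel SatM. With probe sets averaged per gene it was 1 for inflammatory monocytes minus cMoP (main 2), 2 for eosinophils minus neutrophils (main 1), 1 for basophils minus eosinophils (main 3) and 1 for lung macrophages minus panel SatM (main 0). With every probe set by itself it was 4 for eosinophils minus neutrophils and 1 for lung macrophages minus panel SatM. Without a WT term eosinophils minus neutrophils gave 0, and the numbered arrays alone gave 4 for SMP minus cMoP (main 2). Without a tissue term M2-like and lung macrophages minus panel SatM gave 1 each, and without a filter panel SatM minus Msr1- Ceacam1- cells gave 1. Without the lung arrays, a setting added after seeing the data, M2-like macrophages minus panel SatM gave 4. The count of panel SatM minus Msr1-dull Ceacam1-dull cells also moved there. The replicate block left 1 call for inflammatory monocytes minus cMoP, and under it Tgfbr1 in SatM minus inflammatory monocytes had an adjusted p of 0.0662 and Smad3 in SatM minus SMP 0.0519. Same-numbered arrays had deviations correlated from -0.04 to 0.23, and nothing in the labels ties arrays of one number together, so the block is an alternative only. Quantile normalisation moved no count past 1.5 times.

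Leaving out 1 array gave 1 to 2 calls for SatM minus inflammatory monocytes, 2 to 3 for SMP minus cMoP, 2 to 4 for SatM minus SMP, 1 to 3 for inflammatory monocytes minus cMoP, 0 to 1 for eosinophils minus neutrophils, 2 to 3 for basophils minus neutrophils, 1 to 3 for basophils minus eosinophils, 1 to 4 for panel SatM minus Msr1- Ceacam1- cells, 0 to 2 for panel SatM minus Msr1-dull Ceacam1-dull cells, 2 to 3 for M2-like and 0 to 3 for lung macrophages minus panel SatM. Turned in sign were Smad3 in SMP minus cMoP with the WT arrays alone (-1.22), Tgfb1 in eosinophils minus neutrophils (1.16) and Smad7 in basophils minus eosinophils (3.52) on their second probe sets, Tgfbr2 in lung macrophages minus panel SatM with 1 array left out (from -3.36 without the lung SatM array to 0.79 without lung macrophage array 2; main 0.20), and Igfbp4 in SatM minus inflammatory monocytes with the panel bone marrow SatM array added (0.19). The calls of the other pathway genes that the naming rule picked were kept in every alternative for 1 of 8 in SatM minus inflammatory monocytes, 10 of 14 in SMP minus cMoP, 8 of 14 in SatM minus SMP, 3 of 12 in inflammatory monocytes minus cMoP, 1 of 6 in panel SatM minus Msr1- Ceacam1- cells and 0 of 5 in M2-like macrophages minus panel SatM. Without the lung SatM array, lung macrophages and panel SatM shared no tissue, so the 3 calls and the -3.36 there are no direct comparison. The causes of these changes were not tested.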
